A study of Mus musculus with 27 samples.

Results

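The step from day 2 to day 4 after weaning was examined in the whole livers of BALB/c mice in 7 libraries, 3 from mice taken at day 2 (ID2) and 4 at day 4 (ID4), out of 27 libraries in the study. The 7 libraries were chosen by their titles. All 7 came from wild-type BALB/c mothers bred at 10 to 12 weeks of age, with litter sizes evened out, whose pups were taken away after 10 to 14 days of lactation, and the labels name no other treatment. Day 2 and day 4 of involution, the return of the mother's tissues to the state before pregnancy, therefore differ by 2 days without pups. Mice that had never been pregnant (NUL, 4 libraries) give a level for reference, and mice at lactation day 10 (LAC, 3), days 6 and 8 after weaning (ID6, 6; ID8, 3) and 4 weeks after weaning (REG, 4) give the course. Ages at collection are given only as matched. Whole livers were frozen and ground before RNA extraction, so all liver cell types are mixed in each library, and fewer cells of a type cannot be told apart from less RNA per cell.

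The liver makes cholesterol from acetyl-CoA through the mevalonate pathway, a chain of enzymes from thiolase and HMG-CoA synthase to the reductases that finish the sterol ring. The transcription factor SREBP2, made by Srebf2, switches these genes on when sterol in the endoplasmic reticulum is low, with SCAP as its escort and the INSIG proteins as its anchor, and it works beside the factor NF-Y. A related factor, SREBP1, acts more on fatty acid synthesis. Kupffer cells, the resident macrophages of the liver, line the sinusoids and clear particles and dying cells from the blood, while hepatocytes secrete most complement and acute-phase proteins.

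At day 4 the liver held less mRNA for all 20 listed enzymes of cholesterol synthesis, for SREBP2 and for several desaturases, and less for some enzymes of amino acid breakdown. Macrophage genes, several complement genes and the acute-phase genes Saa3 and Hpx were higher. Of 16428 genes tested, 244 changed (1.49%), 106 of them higher (0.645%) and 138 lower (0.84%), by edgeR's quasi-likelihood test at a Benjamini-Hochberg adjusted p under 0.05. The falls were the larger changes. Among called genes 62 fell and 8 rose by more than 1 on the log2 scale, while the median over all genes tested was -0.003. In 242 of the 244 the CPM ranges of the 2 groups did not overlap. CPM is the count divided by its library's TMM-scaled total and put on a fixed scale. Without overlap stood 16.2% of all genes tested, 7.93% higher and 8.25% lower.

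Some libraries stood apart. Estimated counts totalled 53061082 to 72090249 per library, and no pair within a group was close to a duplicate. Genes of the exocrine pancreas, a neighbouring organ, summed to 2344.3 CPM in ID2_31 and 180.7 CPM in ID4_15, against 10.6 to 22.4 CPM in the other 5 libraries. A clock score, the mean log2 level of genes that peak by day minus that of genes that peak by night, was -1.73, -1.56 and -0.13 in ID2_224, ID2_31 and ID2_39 and -2.26, -1.57, -2.44 and -2.52 in ID4_13, ID4_15, ID4_211 and ID4_215, so that 3 of the 4 day 4 libraries lay below every day 2 library. Of 12 clock genes that peak by day, 10 had negative log2 fold changes (median -0.68) and 1 was called lower. Of those that peak by night, 6 of 6 were positive (median 0.35) with 0 called. By DESeq2 1 and 0 were called. At an unadjusted p under 0.05 in edgeR stood 4 and 1 of them, and 2286 of all 16428 genes tested. The libraries ID2_31 and ID2_39 were sequenced in 1 run and the other 5 in 2 runs. Without ID2_31 the number of called genes was 100, without ID2_39 it was 98 and without ID4_215 it was 155. With the clock score as a covariate it was 78 and with the number of runs 154. The part of the clock, the runs and the pancreatic RNA in the results was not tested beyond these fits.

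**Figure D1:**
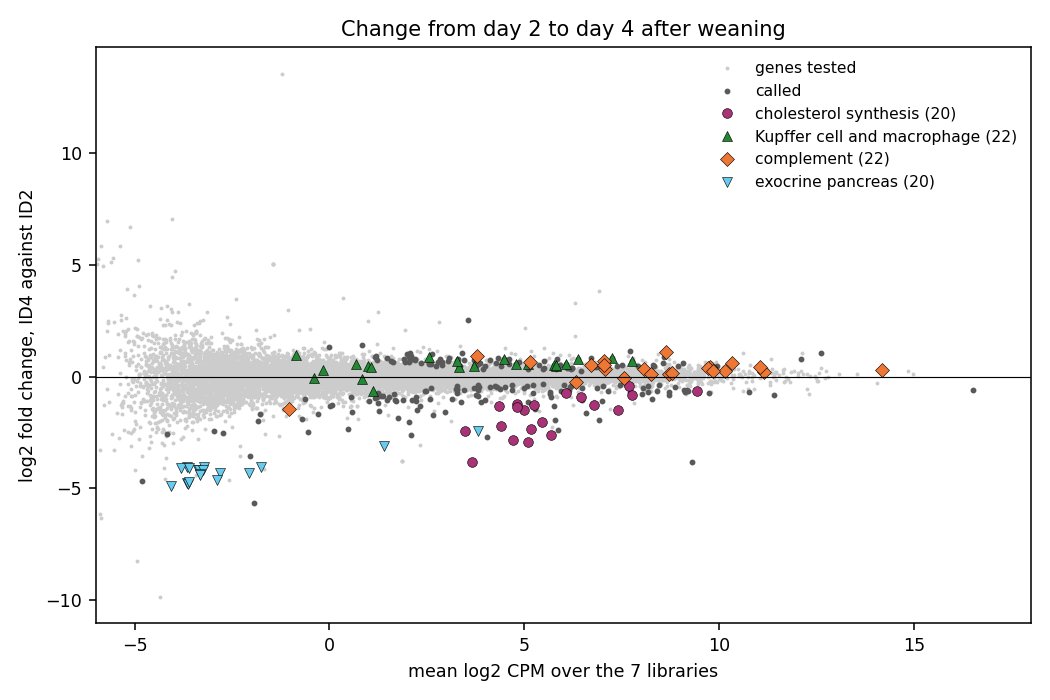
Each point is 1 gene, with its mean log2 CPM over the 7 libraries on the x axis and its log2 fold change from ID2 to ID4 on the y axis; dark points are the 244 called genes and coloured symbols 4 gene lists. All 20 cholesterol synthesis genes lie below 0, 19 of 22 complement genes and 19 of 22 macrophage genes above it, and the 20 pancreatic genes run from -4.88 to -2.44 without a call.

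Promoter sequences of cholesterol synthesis genes are shown because the list moved together and its known regulators have defined sites. In the RefSeq table on GRCm38.p6, 15 of the 20 genes had a promoter. Among these, 6 had 1 promoter whose 250 bases before the start lay wholly outside the gene in the GENCODE annotation. The 4 with the smallest p follow, 5′ to 3′, with CCAAT (the NF-Y box, ATTGG on the other strand) and TCACNCCAC (a sterol regulatory element) in capitals.
Nsdhl, chrX:72918271-72918520, plus strand: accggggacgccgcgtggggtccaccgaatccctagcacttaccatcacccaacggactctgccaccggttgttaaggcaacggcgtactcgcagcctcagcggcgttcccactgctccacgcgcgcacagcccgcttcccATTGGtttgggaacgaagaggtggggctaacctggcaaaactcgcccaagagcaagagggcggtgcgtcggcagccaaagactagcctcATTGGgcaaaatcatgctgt
Mvk, chr5:114444019-114444268, plus strand: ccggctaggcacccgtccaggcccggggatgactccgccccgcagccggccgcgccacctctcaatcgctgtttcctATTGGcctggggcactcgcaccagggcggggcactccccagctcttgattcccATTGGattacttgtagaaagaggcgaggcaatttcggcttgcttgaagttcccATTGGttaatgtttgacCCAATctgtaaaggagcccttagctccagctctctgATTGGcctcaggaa
Hmgcs1, chr13:119690101-119690350, plus strand: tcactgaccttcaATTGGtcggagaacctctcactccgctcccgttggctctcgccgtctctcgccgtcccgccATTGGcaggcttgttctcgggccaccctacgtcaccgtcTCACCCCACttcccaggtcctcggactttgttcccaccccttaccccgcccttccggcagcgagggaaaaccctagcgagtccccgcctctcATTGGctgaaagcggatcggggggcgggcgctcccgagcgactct
Mvd, chr8:122443423-122443672, minus strand: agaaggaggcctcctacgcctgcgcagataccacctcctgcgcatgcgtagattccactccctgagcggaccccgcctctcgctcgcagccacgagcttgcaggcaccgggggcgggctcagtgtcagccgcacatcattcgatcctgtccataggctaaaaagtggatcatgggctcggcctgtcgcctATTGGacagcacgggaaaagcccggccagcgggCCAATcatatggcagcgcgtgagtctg

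The window of Mvk held 5 CCAAT boxes, that of Hmgcs1 3, and those of Nsdhl and Mvd 2 each. Hmgcs1 held the only TCACNCCAC of the list's 18 promoters, 137 bases before the start, and this motif was in 1.05% of all 32851 promoters. CCAAT was in 14 of the 18 promoters, against 33.8% of all. In genes, 14 of 15 had it. Of the other motifs searched on both strands, TTCNNNGAA (the STAT site) was in 1 of the 18 and in 7.02% of all, CACGTG (an E box) in 3 and in 6.02%, and TTANNTAA (a D box of the clock) in 0 and in 5.43%. These matches describe letters in the windows.

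All 20 cholesterol synthesis genes fell, with log2 fold changes from -3.80 (Sqle) to -0.41 (Ebp) and a median of -1.43, and none of the 20 overlapped between the groups. Squalene epoxidase, Sqle (ENSMUSG00000022351, chromosome 15, 59315077 to 59331192), makes the first oxygenated sterol precursor. Its CPM was 45.9, 51.4 and 76.0 in ID2_224, ID2_31 and ID2_39, and 5.94, 3.68, 3.29 and 3.66 in ID4_13, ID4_15, ID4_211 and ID4_215; all genes below are given in this order of libraries. The day 2 libraries were 13.9-fold higher (log2 fold change -3.80, SE 0.39, adjusted p = 6.82e-06), and the ID4_13 value stood above the other 3 of its group.

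Among the early enzymes, which build mevalonate and the isoprene units, the thiolase gene Acat2 fell least (log2 fold change -0.73), with counts that were divided among genes in all 7 libraries. HMG-CoA synthase, Hmgcs1 (ENSMUSG00000093930), had 262.7, 339.4 and 327.1 CPM at day 2 and 128.5, 118.9, 96.5 and 94.0 CPM at day 4. Every day 4 library thus lay below every day 2 library (log2 fold change -1.50, SE 0.22, adjusted p = 0.000287). The kinases Mvk and Pmvk (log2 fold changes -1.32 and -1.49), the decarboxylase Mvd (-2.45) and the isomerase Idi1 (-2.94) fell too. Counts of Idi1, and further on of Fdft1, were divided among genes in 6 of the 7 libraries, and those of Tm7sf2 in 4.

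In the middle of the pathway, the farnesyl diphosphate synthase Fdps (log2 fold change -2.63) and the squalene synthase Fdft1 (-0.92) fell. Lanosterol synthase, Lss, which closes the ring, fell by 1.37. The late enzymes trim lanosterol to cholesterol. The methyl oxidase Msmo1 (ENSMUSG00000031604, chromosome 8, 64718139 to 64733792) had the smallest adjusted p of the comparison, with 68.0, 88.4 and 88.2 CPM at day 2 and 10.41, 10.59, 12.97 and 11.11 CPM at day 4 (log2 fold change -2.85, SE 0.20, adjusted p = 5.08e-09). The demethylase Cyp51 had 78.9, 99.0 and 97.3 CPM against 21.7, 16.7, 16.0 and 17.5 CPM (log2 fold change -2.35, SE 0.17, adjusted p = 5.34e-09). For both genes the gap between the groups was wider than the range within either. Nsdhl (log2 fold change -2.20), Dhcr7 (-2.02), Tm7sf2 (-1.26) and Hsd17b7 (-1.25) fell as well. Smaller falls were those of Sc5d (-0.83, adjusted p = 0.049) and Ebp (-0.41, adjusted p = 0.0462). Sc5d lost its call in all 7 fits that left out 1 library, and Ebp in 6 of 7.

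**Figure D2:**
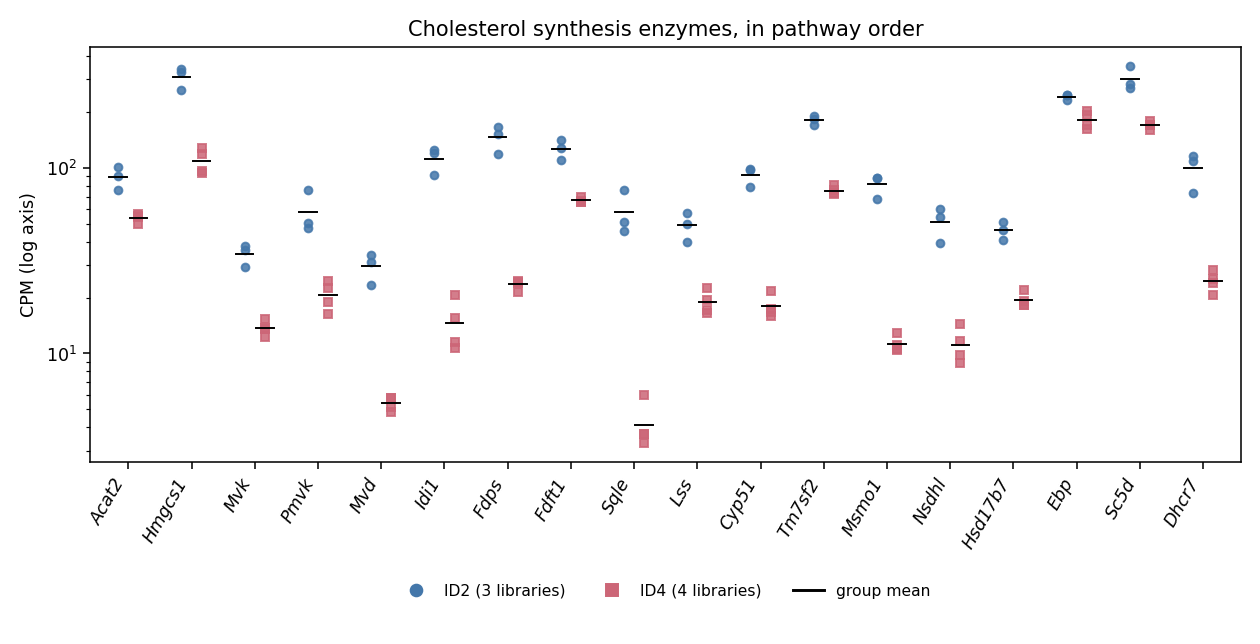
CPM (log axis) of 18 of the 20 cholesterol synthesis genes, ordered from the first enzyme to the last; circles are the 3 ID2 libraries, squares the 4 ID4 libraries, and black lines the group means. In each gene the ID4 squares lie below the ID2 circles, with the widest gap at Sqle and the narrowest at Ebp.

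Against mice never pregnant, the list was at its reference level at day 2 and below it at day 4. In ID2 against NUL, 3.24% of all genes were called and none of the 20, whose log2 fold changes ran from -0.52 to 0.52 (median 0.07); in ID4 against NUL, 4.25% of all genes were called and all 20, all lower (median -1.46). These comparisons share the NUL libraries. Each also shares its day 2 or day 4 libraries with the comparison of day 4 against day 2, so neither is independent of it. Summed over the list, CPM was 2704.2, 3254.8 and 3203.1 at day 2 and 1617.5, 1323.4, 1425.7 and 1404.2 at day 4. The NUL range was 2596.4 to 3589.2, the LAC range 4561.9 to 5428.8 and the ID6 range 1531.8 to 1932.8, so the day 4 and day 6 libraries shared the low end of the course. The calls depended little on single libraries, with 16 to 19 of 20 called when 1 library was left out, 16 with the clock score and 18 with the number of runs as a covariate. Within the libraries whose title numbers are under 200, 16 were called (median -1.50). Within those of 200 and over, with 1 library at day 2 and 2 at day 4, 5 were called (median -1.21).

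Of 17 genes for the control and uptake of sterols, 6 fell and 0 rose (median -0.13). Srebf2 had 70.6, 73.5 and 77.9 CPM at day 2 and 43.7, 38.4, 36.5 and 40.1 CPM at day 4 (log2 fold change -0.90, SE 0.12, adjusted p = 2.34e-05). The spread within each group was small beside this gap. Among the others that fell were the sterol carrier Stard4 (-1.30, adjusted p = 2.53e-07), the sterol-binding protein Tmem97 (-0.66, adjusted p = 0.000536) and Insig1 (-1.95, adjusted p = 0.0273). Insig1 was 111.3 CPM in ID4_211 and 51.3 to 59.6 CPM in the other day 4 libraries. Its call was lost in 5 of 7 fits that left out 1 library and with the clock score (adjusted p = 0.227). In that clock score fit 4 of the 17 were called. Scap (log2 fold change -0.08, adjusted p = 0.747) and Insig2 (0.34, adjusted p = 0.393) were not called. Among 10 genes of sterol export and of the sterol sensor LXR, 1 was called: Pltp, which transfers phospholipid between lipoproteins, fell (-1.16, adjusted p = 0.00673). Its counts were divided among genes in 6 libraries, and its call was lost with the clock score (adjusted p = 0.0987). Its level at day 2 had been above NUL (1.09, adjusted p = 0.00706) and at day 4 was near it (-0.07).

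Fatty acid synthesis and desaturation followed in part: 6 of 28 lipogenesis genes fell and 0 rose, 16 were lower and 3 higher without overlap, and the median was -0.61. Scd1 (ENSMUSG00000037071, chromosome 19, 44394455 to 44407879), which desaturates stearate to oleate, had 2027.0, 4134.0 and 2671.0 CPM at day 2 and 183.5, 218.9, 272.5 and 172.0 CPM at day 4. The lowest day 2 library was far above the highest day 4 library (13.9-fold between means; log2 fold change -3.80, SE 0.44, adjusted p = 2.34e-05). Scd1 was at the NUL level at day 2 (-0.09). At day 6 its mean was 5914.0 ± 2752.0 CPM (SD, n = 6), beside means of 2944.0 CPM at day 2 and 3135.0 CPM in NUL. The polyunsaturated fatty acid enzymes Fads1 (-0.84, adjusted p = 0.00175), Fads2 (-0.66, adjusted p = 0.025) and Elovl5 (-0.59, adjusted p = 0.0381) fell too. So did the acetate and long-chain activating enzymes Acss2 (-1.62, adjusted p = 0.0475) and Acsl3 (-1.14, adjusted p = 0.0136).

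Several core genes of the same list did not pass the test. Fatty acid synthase, Fasn, had 215.7, 264.2 and 303.0 CPM at day 2 and 93.8, 96.7, 107.1 and 85.9 CPM at day 4, without overlap (log2 fold change -1.44, SE 0.52, adjusted p = 0.19). The lipogenic regulator Thrsp (-2.24, adjusted p = 0.0883) and the carboxylase Acacb (-1.52, adjusted p = 0.0743) were alike in this. Srebf1, which makes SREBP1, overlapped between the groups (-0.57, adjusted p = 0.614). When only the 7 libraries entered the fit, 13 lipogenesis genes were called, and without ID2_31 or without ID2_39 2 were. With the clock score as a covariate 3 were called and the median was -0.25; Fads2, Acsl3 and Acss2 then lost their calls (adjusted p = 0.117, 0.153 and 0.152). Acss2 lost its call in all 7 fits that left out 1 library and Elovl5 in 6 of 7. Counts of Scd1 were divided among genes in 4 of the 7 libraries. Of 9 adipose markers tested, 8 had negative log2 fold changes (median -0.47) and 0 were called in edgeR or by DESeq2. At an unadjusted p under 0.05 in edgeR stood 2286 of all 16428 genes tested and 4 of these adipose markers. They summed to 723.4, 661.1 and 549.0 CPM at day 2 and 529.7, 436.4, 592.6 and 309.0 CPM at day 4, with overlap, and Car3 made up most of each sum, from 528.6 to 702.3 CPM and from 288.2 to 573.9 CPM. The fat cell hormone Adipoq was at 0.0809 to 1.03 CPM at day 2 and 0.0474 to 0.826 CPM at day 4. The part of fat in the fall of the lipogenic genes was not tested.

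Some genes of amino acid breakdown and the urea cycle fell: 4 of 33 were called lower, 0 rose, 30 had negative log2 fold changes, and the median was -0.24. Ass1 (ENSMUSG00000076441, chromosome 2, 31470207 to 31520672), which joins citrulline and aspartate in the urea cycle, had 3436.0, 4094.0 and 3729.0 CPM at day 2 and 1997.0, 2129.0, 2207.0 and 2262.0 CPM at day 4 (log2 fold change -0.80, SE 0.14, adjusted p = 0.00111). The aspartate aminotransferase Got1 had 694.0, 740.1 and 780.8 CPM against 396.1, 454.6, 508.6 and 459.4 CPM (log2 fold change -0.70, SE 0.14, adjusted p = 0.00617). Neither gene overlapped between the groups, and counts of Ass1 were divided among genes in 6 libraries. The lysine-degrading enzyme Aass (-0.53, adjusted p = 0.00889) and the ornithine carrier Slc25a15 (-0.49, adjusted p = 0.0238) fell as well. Without ID2_39, 2 of the 33 were called. With the clock score as a covariate 1 was, Ass1 (adjusted p = 0.0167), and Got1 (adjusted p = 0.101), Aass (0.0686) and Slc25a15 (0.183) were not. The urea cycle enzymes Cps1 (-0.56, adjusted p = 0.0757) and Asl (-0.76, adjusted p = 0.1) were lower without overlap and missed the threshold, and Otc was level (0.01, adjusted p = 0.983). The related gene Cth, the last enzyme of cysteine synthesis from methionine, fell by 0.70 on the log2 scale, as did the aldehyde dehydrogenase Aldh1b1. Their calls were lost in 4 and 3 of 7 fits that left out 1 library, and with the clock score (adjusted p = 0.156 and 0.176).

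These genes had a different reference from the sterol genes. Against NUL, 19 of the 33 were higher at day 2 (median 0.47) and 5 at day 4 (median 0.20), with none lower in either comparison. Over all genes tested, 3.24% were called at day 2 and 4.25% at day 4. Ass1 was 0.67 above NUL at day 2 (adjusted p = 0.00505) and -0.13 from it at day 4 (adjusted p = 0.629), on the log2 scale. Got1 was 0.95 above at day 2 (adjusted p = 0.000252) and 0.25 at day 4 (adjusted p = 0.305). In these 2 genes the day 4 libraries were thus nearer the NUL level than the day 2 libraries.

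Glutathione S-transferases of the mu class, which conjugate reactive compounds to glutathione, made up the 4 falls among 32 conjugation enzymes, with 0 rises and a median of 0.01. They were Gstm3 (-1.34, adjusted p = 0.0183), Gstm2 (-1.07, adjusted p = 0.00231), Gstm4 (-0.70, adjusted p = 0.00971) and Gstm1 (-0.64, adjusted p = 0.00921). Gstm2 had 183.9, 191.9 and 208.3 CPM at day 2 and 92.1, 102.5, 79.6 and 96.5 CPM at day 4, without overlap. With the clock score as a covariate 1 of these 4 kept its call, Gstm4 (adjusted p = 0.0452), and 2 members of the list were called without ID2_31 or without ID2_39. Outside that list, Ugt1a5 fell by 2.40 on the log2 scale (adjusted p = 2.12e-06), but its counts were divided among genes in all 7 libraries; it shares exons with its family. Fabp5, a fatty acid carrier, fell by 1.94 with the same limit, and lost its call in 2 of 7 fits that left out 1 library and with the clock score (adjusted p = 0.101).

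Albumin, the main plasma protein, fell. Alb took 124200.0, 113900.0 and 122300.0 CPM at day 2 and 79430.0, 80600.0, 71130.0 and 82030.0 CPM at day 4 (log2 fold change -0.62, SE 0.14, adjusted p = 0.0227). The groups did not overlap, but the call was lost in 4 of 7 fits that left out 1 library and with the clock score (adjusted p = 0.112). Of the 12 hepatocyte markers, Alb fell, Cyp2e1 rose and 10 were not called, among them the hepatocyte factor Hnf4a (0.15, adjusted p = 0.73). H2-Q10, a secreted class I molecule of hepatocytes, fell by 0.73 (adjusted p = 0.0021) while the cell-surface class I gene H2-D1 rose by 0.46 (adjusted p = 0.0447). H2-Q10 counts were divided among genes in 5 libraries and H2-D1 counts in all 7, and the call of H2-D1 was lost in all 7 fits that left out 1 library. Ciart, a repressor of the clock, was called lower (-3.53, adjusted p = 0.0124), and Gnat1, a transducin subunit, was too (-2.60, adjusted p = 0.0238). Both were highest in ID2_39, the library with the high clock score, at 2.49 CPM and 28.2 CPM. Ciart is itself among the genes averaged into that score. Both genes lost the call without ID2_39, and Gnat1 lost it in 4 of 7 fits that left out 1 library.

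Macrophage genes rose: 9 of 22 Kupffer cell and macrophage markers were called higher and 0 lower, with a median of 0.54, and 13 were higher and 1 lower without overlap. Clec4f (ENSMUSG00000014542, chromosome 6, 83644542 to 83656187), a lectin found on Kupffer cells, had 174.3, 149.1 and 171.5 CPM at day 2 and 270.0, 264.9, 268.8 and 276.7 CPM at day 4. Day 4 libraries were 1.64-fold higher and close to each other (log2 fold change 0.71, SE 0.14, adjusted p = 0.0055). Timd4, a receptor for the phosphatidylserine of dying cells, had 7.88, 6.07 and 8.17 CPM against 12.4, 13.8, 11.1 and 10.9 CPM (log2 fold change 0.71, SE 0.16, adjusted p = 0.0172). Adgre1, which encodes the F4/80 antigen, had 17.0, 14.6 and 17.3 CPM against 33.0, 30.4, 24.7 and 24.1 CPM (log2 fold change 0.78, SE 0.14, adjusted p = 0.00309). All 3 were without overlap. The lysozyme gene Lyz2 rose by 0.76 (adjusted p = 0.000299), the secreted scavenger protein Cd5l by 0.85, the growth factor receptor Csf1r by 0.56, the complement receptor Vsig4 by 0.54, the haemoglobin scavenger receptor Cd163 by 0.54 and C1qa by 0.51. Counts of Csf1r were divided among genes in all 7 libraries.

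The 13 that were not called included Marco (0.85, adjusted p = 0.157), C1qb (0.53, adjusted p = 0.0663), the monocyte genes Ly6c2 (0.94, adjusted p = 0.239) and Ccr2 (0.42, adjusted p = 0.571), and Trem2 (-0.05, adjusted p = 0.97). Summed over the list, CPM was 677.4, 557.1 and 671.3 at day 2 and 1020.7, 1062.1, 944.6 and 992.0 at day 4, against 612.7 to 748.9 in NUL. The lowest sum was in ID2_31, the library with the most pancreatic RNA, and the highest in ID4_15, the library with the next most. Without ID2_31, 2 of the 22 were called (median 0.43). With the clock score as a covariate 5 were called; Timd4 and Cd5l were among those lost (adjusted p = 0.0662 and 0.0633). Against NUL, 0 of the 22 were higher and 1 lower at day 2, Lyz2, and 10 were higher at day 4. The shares called over all genes tested were 3.24% at day 2 and 4.25% at day 4. Markers of other blood cells gave no call. Called were 0 of 19 T and NK cell genes, 0 of 14 B and plasma cell genes and 0 of 12 neutrophil genes. By DESeq2 1, 0 and 0 of these were called. At an unadjusted p under 0.05 in edgeR stood 4, 0 and 4 of them, and 2286 of all 16428 genes tested. The neutrophil genes summed to 22.4, 16.5 and 86.0 CPM at day 2 and 176.3, 82.9, 81.1 and 40.0 CPM at day 4, so the groups overlapped. The T and NK cell genes (17 of 19 positive, median 0.50) summed to 7.54, 9.49 and 6.17 CPM at day 2 and 10.26, 13.67, 11.04 and 11.74 CPM at day 4, without overlap. The 12 genes of MHC class II, 1 of them called, had a median of 0.56 and sums of 121.1, 98.9 and 92.5 CPM against 132.8, 187.8, 136.5 and 161.1 CPM, also without overlap. The median was 0.88 for the neutrophil genes (11 of 12 positive) and 0.32 for the B and plasma cell genes (10 of 14). The part of these lists in the rise of the macrophage list was not tested.

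Cd300a (ENSMUSG00000034652, chromosome 11, 114890041 to 114904654), an inhibitory receptor of myeloid cells, had 4.20, 4.05 and 4.19 CPM at day 2 and 9.06, 8.31, 7.46 and 8.13 CPM at day 4. The day 2 values were nearly equal, and the rise kept its call in all 7 fits that left out 1 library (log2 fold change 0.99, SE 0.12, adjusted p = 1.51e-05). The beta-glucan receptor Clec7a rose by 1.07 (adjusted p = 0.00183), the uric acid crystal receptor Clec12a by 0.997 (adjusted p = 0.0109), Plek by 0.87 (adjusted p = 0.023) and Cd300c2 by 0.83 (adjusted p = 0.0238). Ctss, a protease of antigen-presenting cells, rose by 0.68 (adjusted p = 0.0123). Clec7a kept its call without each library in turn, while Plek and Cd300c2 lost theirs in 4 of 7 such fits, Clec12a in 2 and Ctss in 1. Plek, Cd300c2 and Ctss lost theirs with the clock score too (adjusted p = 0.0711, 0.243 and 0.0513).

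**Figure D3:**
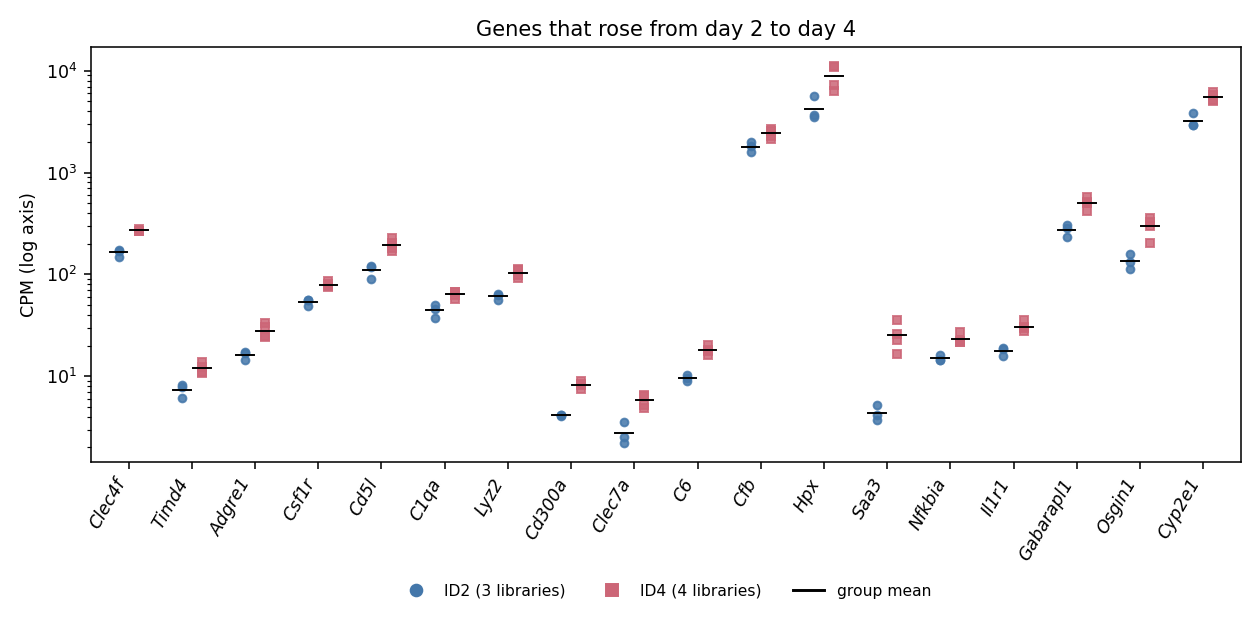
CPM (log axis) of 18 genes that rose, with macrophage genes at the left, then complement, acute-phase and other genes; circles are the 3 ID2 libraries, squares the 4 ID4 libraries, and black lines the group means. No square lies below a circle of the same gene. The genes were picked from the called genes, of which 242 of 244 had no overlap, so this follows from the choice. The gap is widest at Saa3, whose ID4 values run from 16.6 to 35.8 CPM.

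Complement genes rose in part, with 6 of 22 called higher, 0 lower, 19 positive and a median of 0.35. C6, a component of the membrane attack complex, had 10.3, 9.65 and 8.98 CPM at day 2 and 20.1, 18.1, 17.8 and 16.2 CPM at day 4, without overlap (log2 fold change 0.90, SE 0.15, adjusted p = 0.000798). Properdin, Cfp, which steadies the alternative pathway convertase, rose by 0.66, and factor B, Cfb, by 0.43, with counts of Cfb divided among genes in 5 libraries. The mannose-binding lectins Mbl1 and Mbl2 rose by 0.51 and 0.40. Between 1 and 4 of the 22 were called when 1 library was left out, and C6 alone without ID2_224, without ID2_31 or with the clock score as a covariate. C3 was not called against day 2 (0.28, adjusted p = 0.382). Against NUL, 2 of the 22 were higher at day 2 and 13 at day 4, where 3.24% and 4.25% of all genes tested were called.

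Of 32 acute-phase genes, which the liver turns on in inflammation, 2 rose and 0 fell, and 29 had positive log2 fold changes (median 0.37). Saa3 (ENSMUSG00000040026, chromosome 7, 46711998 to 46715700), a serum amyloid A gene that macrophages and fat also express, had 5.26, 3.74 and 4.19 CPM at day 2 and 26.2, 35.8, 22.6 and 16.6 CPM at day 4. It was the largest rise among called genes, 5.76-fold (log2 fold change 2.52, SE 0.41, adjusted p = 0.00175), and kept its call without each library in turn. Hemopexin, Hpx, which binds free heme, had 3646.0, 3485.0 and 5649.0 CPM against 11090.0, 7323.0, 10780.0 and 6309.0 CPM (log2 fold change 1.06, SE 0.24, adjusted p = 0.0223). Its highest day 2 library came near its lowest day 4 library. The call of Hpx was lost in 4 of 7 fits that left out 1 library and with the clock score (adjusted p = 0.108). Without ID2_31, without ID4_211 or with the clock score as a covariate, Saa3 alone was called.

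The hepatocyte serum amyloid genes varied far more between libraries. Saa1 had 19.7, 21.5 and 82.7 CPM at day 2 and 1242.0, 187.1, 806.5 and 58.6 CPM at day 4 (log2 fold change 3.80, SE 0.96), and Saa2 had 16.1, 19.0 and 67.2 CPM against 822.4, 82.9, 372.7 and 37.1 CPM (3.27, SE 0.96, adjusted p = 0.0944). Both overlapped, with ID4_215 below ID2_39, and neither passed the test. The summed CPM of the list overlapped as well, from 24713.1 to 42544.6 at day 2 and from 37691.4 to 52870.3 at day 4. Among 25 genes of cytokine signalling 2 rose, the NF-kappa-B inhibitor Nfkbia (0.62, adjusted p = 0.0136) and the interleukin 1 receptor Il1r1 (0.79, adjusted p = 0.0145). Nfkbia lost its call in 3 of 7 fits that left out 1 library, and Il1r1 without ID2_31 (adjusted p = 0.116) and with the clock score (adjusted p = 0.112). Il1r1 was below NUL at day 2 (-0.62, adjusted p = 0.0425) and near it at day 4 (0.17).

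Osgin1, an oxidative stress response gene, had 159.2, 131.5 and 112.2 CPM at day 2 and 359.9, 325.1, 300.4 and 205.3 CPM at day 4 (log2 fold change 1.15, SE 0.20, adjusted p = 0.00175). It stood -1.12 from NUL at day 2 (adjusted p = 0.00192) and 0.03 at day 4, on the log2 scale. The carboxylesterase Ces3a rose by 1.11 (adjusted p = 0.036), from -1.25 to -0.13 against NUL. Its counts were divided among genes in 6 libraries, and its call was lost in 5 of 7 fits that left out 1 library and with the clock score (adjusted p = 0.208). Among 33 P450 genes, Cyp2c38 (0.82, adjusted p = 0.00167), Cyp2e1 (0.77, adjusted p = 0.0406) and Cyp2c39 (0.45, adjusted p = 0.0137) rose and 0 fell, and without ID2_31 or without ID2_39 1 was called. Cyp2e1, which oxidises ethanol and ketones, had 3875.0, 2944.0 and 2906.0 CPM against 5049.0, 5769.0, 5137.0 and 6187.0 CPM, and lost its call in 6 of 7 fits that left out 1 library. Of 34 lysosome and autophagy genes 3 rose and 0 fell: the autophagosome protein Gabarapl1 (0.88, adjusted p = 0.00155), with counts divided among genes in all 7 libraries, the hexosaminidase Hexa (0.42, adjusted p = 0.00889) and the cathepsin Ctsz (0.45, adjusted p = 0.0238). Hexa was already above NUL at day 2 (0.41, adjusted p = 0.00634). Cyp2e1, Cyp2c39, Hexa and Ctsz lost their calls with the clock score (adjusted p = 0.163, 0.141, 0.0615 and 0.102). For comparison with the counts of these lists, 1.49% of all genes tested were called.

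Other lists had 1 to 3 called members, where 1.49% of all genes tested were called. The ketone body enzyme Bdh1 rose by 0.45, the pro-apoptotic gene Bax by 0.56, the nucleolar gene Npm1 by 0.43, the secreted chaperone Clu by 0.59 and the methionine adenosyltransferase Mat2a by 0.52. In retinoid metabolism, Rdh11 fell by 1.47 (adjusted p = 0.00142) and Rarres1 rose by 0.70 (adjusted p = 0.0411). Mat2a and Rarres1 each lost their calls in 5 of 7 fits that left out 1 library, Npm1 in 3, Clu in 2 and Bdh1 in 1, and all 5 with the clock score (adjusted p from 0.0711 to 0.326). Serpina3g rose by 1.05 (adjusted p = 0.048) and Rasa4 by 0.87 (adjusted p = 0.0298). They lost their calls in 6 and 5 of 7 fits that left out 1 library, and Rasa4 also with the clock score (adjusted p = 0.176). Counts of Mat2a were divided among genes in all 7 libraries, those of Serpina3g in 5 and those of Npm1 in 4.

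**Figure D4:**
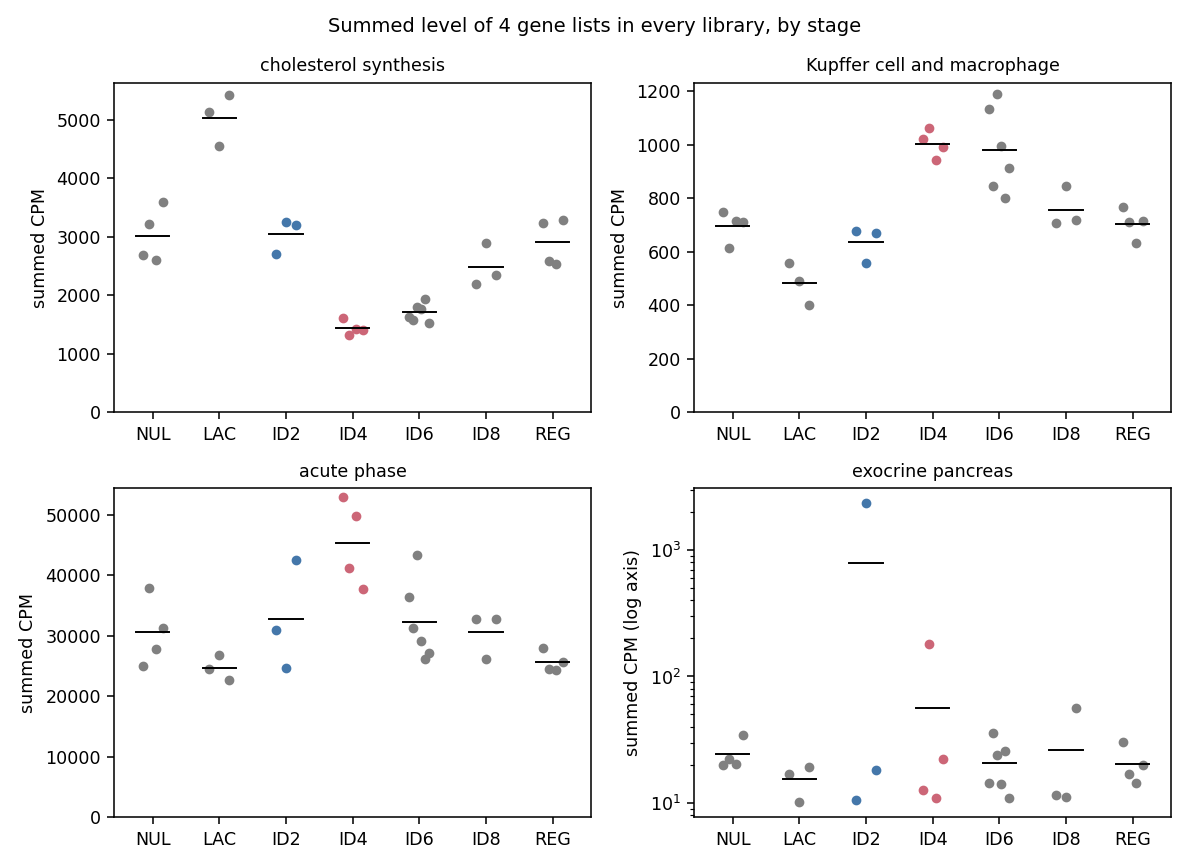
Summed CPM of 4 gene lists in every library, by stage from NUL to REG; each point is 1 library, blue for ID2, red for ID4 and grey for the others, the black line is the group mean, and the pancreas panel has a log axis. Cholesterol synthesis is lowest at ID4 and ID6, the macrophage list is highest there, the acute-phase sums of ID2 and ID4 overlap, and ID2_31 stands out in the pancreas panel at 2344.3 CPM.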

How the data were processed

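Bulk RNA sequencing of whole liver was analysed for 7 libraries, 3 of ID2 and 4 of ID4. The submitters' processing notes name STAR 2.6.1a, RSEM 1.3.1 and the builds mm10 and GRCm38, without their roles. Per the file headers, the authors deposited RSEM tables, in which an expected count estimates the reads of 1 gene with no scaling across libraries. These tables also hold the authors' TPM, which corrects for gene length and library size. The use of strand is not given in the sources used here, so overlapping and antisense genes are uncertain, as are genes whose counts are not whole. Symbols and gene positions are from GENCODE mouse release 21 on GRCm 38, and promoters from RefSeq.

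Expected counts were rounded and fitted in edgeR 4.0.16 under R 4.3.3, with filterByExpr, TMM scaling and a robust quasi-likelihood fit of all 27 libraries in 7 groups. Calls are two-sided at a Benjamini-Hochberg adjusted p under 0.05. SE was taken from the log2 fold change and its F statistic. The pipeline was tested on simulated data. Alternatives used DESeq2 1.42.0 and limma 3.58.1, the latter on log2 of TPM plus 1 or plus 0.1. The labels do not tie each library to an animal of its own, so p-values measure the spread between libraries, which may be technical.

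The genes named are the 15 largest rises and falls among called genes without overlap, whose mean log2 CPM was 1 or more and whose symbol is no placeholder, and up to 6 called members of each of 54 gene lists; some of these are not reported here. Members of those lists that are given with a p above the threshold were chosen after their values were seen. The promoter rule that windows lie outside the GENCODE gene was also added then. The libraries and lists were chosen with earlier results of these data known.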

Additional observations from a re-analysis of the deposited data

Results flagged for a closer look

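In 7 of 85 named genes 1 day 4 library stood far from the other 3 of its group; chance flags about 1 in 20 such groups, or 4.25 of 85. ID4_211 was high for Insig1 (111.3 CPM) and Cth (434.9 CPM) and low for Bdh1 (320.9 CPM). ID4_15 was high for Nfkbia (27.4 CPM) and Serpina3g (21.9 CPM) and low for Fdps (21.6 CPM). ID4_13 was high for Sqle (5.94 CPM). In Sqle, Insig1, Cth and Fdps every day 4 value, including these, was below every day 2 value. Sqle, Insig1 and Fdps were among the largest falls, a choice that required no overlap. Such separation also held for 242 of the 244 called genes.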

How the results depend on the processing

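None of the 92 genes chosen by the naming rule changed direction under any alternative; other genes given in the text were not followed in this way. Of these 92, 52 lost their call in at least 1 fit that left out 1 library, and 47 with the clock score as a covariate. No paired analysis was possible because no title number occurs in both groups. The count of 244 called genes became 518 with DESeq2, 435 with only the 2 groups in the fit, 81 at an adjusted p under 0.01, 154 with the number of runs and 78 with the clock score as a covariate. Within title numbers under 200 it was 70, within 200 and over 8, and within libraries of 2 runs, chosen after seeing the data, 17; these fits hold fewer samples, and where day 2 has 1 library, it is assumed to vary like the other groups. Leaving out 1 library gave 98 to 193. Cholesterol synthesis had 16 to 19 of its 20 members called without 1 library, 5 within title numbers of 200 and over and 9 within libraries of 2 runs. Macrophage markers, 9 called, ranged from 2 to 9 without 1 library, and were 5 with the clock score, 3 at an adjusted p under 0.01, 2 within title numbers under 200, 0 within 200 and over and 0 within libraries of 2 runs. For the covariates the cause was not tested.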

Other observations

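Lists of other processes gave no call in edgeR. Of all 16428 genes tested, 2286 passed an unadjusted p under 0.05 in edgeR. Of 42 genes of the cell cycle and mitosis, 37 had negative log2 fold changes (median -0.26), 9 passed an unadjusted p under 0.05 and 0 were called by DESeq2. Of 26 cytosolic heat shock genes, 22 were positive (median 0.40), 12 passed an unadjusted p under 0.05 and 2 were called by DESeq2. Of 35 proteasome genes, 32 were positive with a small median of 0.12, 5 passed an unadjusted p under 0.05 and DESeq2 called 0. Interferon-stimulated genes (35 tested, median 0.01), collagens and matrix (32, median -0.06) and the respiratory chain (40, median -0.02) had 3, 1 and 1 genes at an unadjusted p under 0.05 and 0 calls by DESeq2 in each list.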
